A study of Homo sapiens with 6 samples.

Results

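The BCL2 family decides whether the mitochondrial outer membrane stays intact or opens to release cytochrome c and start apoptosis. The data described here are the transcript levels of 10 of its genes, chosen by exact match of the gene symbol, out of 17789 symbols listed in at least 1 library. They are 4 survival genes (BCL2, BCL2L1, MCL1 and BCL2A1), 2 effectors (BAX and BAK1) and 4 BH3-only genes (BID, BIK, BMF and BCL2L11). Of the 10, 9 were listed. BCL2A1, a survival protein known as a target of NF-kB, was not in any of the 6 tables and was set to 0 FPKM. FPKM, the unit of every level below, counts fragments per kilobase of transcript and per unit of sequencing depth.

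The study holds 6 RNA-seq libraries: 3 from control cells labelled wild type and 3 from cells with FOXD3 knockdown, all from 1 human line labelled A549 (lung carcinoma of the non-small-cell type), grown in MEM with fetal bovine serum. FOXD3 is a forkhead factor with known roles in neural crest and stem cells. Its transcript was targeted by pooled siRNA duplexes carried by a lipid transfection reagent. The labels say that the knockdown was examined at 72 h, but neither when RNA was taken nor what the control wells received. Nothing in them says that the libraries of a group came from separate cultures, so p-values cover the spread between these libraries alone, and that spread may be technical.

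Survival proteins such as BCL-xL (the main product of BCL2L1) and MCL1 bind and hold back the effectors BAX and BAK, which form the pore. BH3-only proteins sense stress: some occupy the groove of the survival proteins and some also activate the effectors directly. In epithelial cancers BCL-xL and MCL1 are commonly the survival proteins on which cells depend, and much of the family's control lies beyond transcript level, in protein turnover, cleavage and localisation.

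The line's identity and the knockdown were checked first. In control replicates 1, 2 and 3 the FOXD3 level was 0.152, 0.291 and 0.134 FPKM. It was at 0.0749 in knockdown replicate 2, and was not listed in knockdown replicates 1 and 3. A two-sided exact permutation test had p = 0.1, the lower limit for 3 libraries against 3, and at this level the size of the reduction was not measurable. Epithelial markers were abundant, with the sum of KRT8, KRT18, KRT19, EPCAM and CDH1 at 5051 to 6021 FPKM in control and 7215 to 7277 in knockdown libraries. Other genes go against the label. A549 is known to have lost both copies of CDKN2A, CDKN2B and MTAP, yet the sum of these 3 was 179 to 183 FPKM in control and 146 to 150.2 in knockdown libraries. Vimentin, usually high in A549, was at 3.79 ± 0.401 (SD, n = 3) and 1.17 ± 0.263. The cells are therefore called cells labelled A549. The 7 leukocyte markers summed to 165 to 183 FPKM in control and 91.8 to 95.0 in knockdown libraries, nearly all from CD68 and LCP1; MS4A1 was not listed, and PTPRC was at 0.227 ± 0.0713 and 0.194 ± 0.043 (SD, n = 3). The part of these shifts in the results below was not tested. In bulk RNA, fewer cells of a type and less RNA per cell cannot be told apart.

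RefSeq promoter sequences (GRCh38.p14) were found for 8 of the 10 members, and 3 are shown because their genes carry the changes described next: BCL2L11, the member that rose, and BMF and BCL2L1, a BH3-only and a survival gene that fell. Each line is the 250 bases before the first start site, 5′ to 3′ on the gene's strand. Capitals mark matches, on either strand, to the GC box GGGCGG, the forkhead core GTAAACA, the cAMP response element TGACGTCA or the NF-kB site.
BCL2L11, chr2:111120664-111120913, plus strand: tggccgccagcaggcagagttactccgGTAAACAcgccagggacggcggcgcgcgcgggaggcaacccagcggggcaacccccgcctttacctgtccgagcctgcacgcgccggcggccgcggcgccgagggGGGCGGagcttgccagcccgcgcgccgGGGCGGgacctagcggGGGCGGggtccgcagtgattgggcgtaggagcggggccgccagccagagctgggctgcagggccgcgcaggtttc
BMF, chr15:40108880-40109129, minus strand: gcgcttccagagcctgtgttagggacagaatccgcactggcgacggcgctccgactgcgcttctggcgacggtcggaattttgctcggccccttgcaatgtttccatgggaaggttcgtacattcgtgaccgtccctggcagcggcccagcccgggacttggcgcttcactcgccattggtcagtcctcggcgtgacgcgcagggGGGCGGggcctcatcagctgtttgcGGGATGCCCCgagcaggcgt
BCL2L1, chr20:31723964-31724213, minus strand: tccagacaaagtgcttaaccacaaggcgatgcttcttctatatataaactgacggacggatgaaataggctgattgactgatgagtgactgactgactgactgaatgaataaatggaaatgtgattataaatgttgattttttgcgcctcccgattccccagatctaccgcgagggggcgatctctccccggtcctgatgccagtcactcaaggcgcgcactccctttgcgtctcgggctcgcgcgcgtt

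The BCL2L11 window was 76.8% G and C and held 3 GC boxes, 118, 91 and 75 bases before the start (first base of each), and 1 forkhead core, 223 bases before it. The BMF window was 65.2% G and C and held 1 GC box, 45 bases before the start, and 1 NF-kB match, 20 bases before it. The BCL2L1 window was 50.0% G and C and held none of the 4 motifs. BMF and BCL2L1 each have 2 starts in the table, and the windows before the second held none either. Before the first start of the other members, BAK1 had 2 GC boxes and BAX 1, while BCL2, BCL2A1 and BID had no match. BID has 5 starts in the table, and the windows before its other starts, which overlap in part, held 4, 4, 3 and 1 GC boxes and none of the other motifs. Among 35116 RefSeq windows of the same length, 42.6% held a GC box, 2.98% the forkhead core, 1.65% the cAMP response element and 9.96% the NF-kB site. A match is a description of these letters and not a measured binding site.

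The main comparison asked which members differed between knockdown and control cells. BMF, BIK and BCL2L1 fell furthest, MCL1 and BID fell less, and BCL2L11 was the member that rose. BMF was 2.26-fold, BIK 1.90-fold and BCL2L1 1.71-fold lower by mean FPKM. BAX and BAK1, the pore-forming effectors, did not pass the test. Of the 10 members, 8 reached the minimum for testing, an average of 0.5 FPKM across libraries, and were tested with limma on log2(FPKM + 1) among 13340 symbols. At a Benjamini-Hochberg adjusted p under 0.05, 5 were lower and 1 higher. Over all tested symbols 37.9% were called lower and 25.6% higher, 63.5% in all, so 6 of 8 called is not far from the background. The median log2 change was -0.28 over the 8 members and -0.09 over all tested symbols. That overall median moved to 0.03 after quantile normalization, and every member's call held there and under median scaling. The same 6 members were those whose groups of libraries did not overlap, against 69.1% of all tested symbols.

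**Figure D1:**
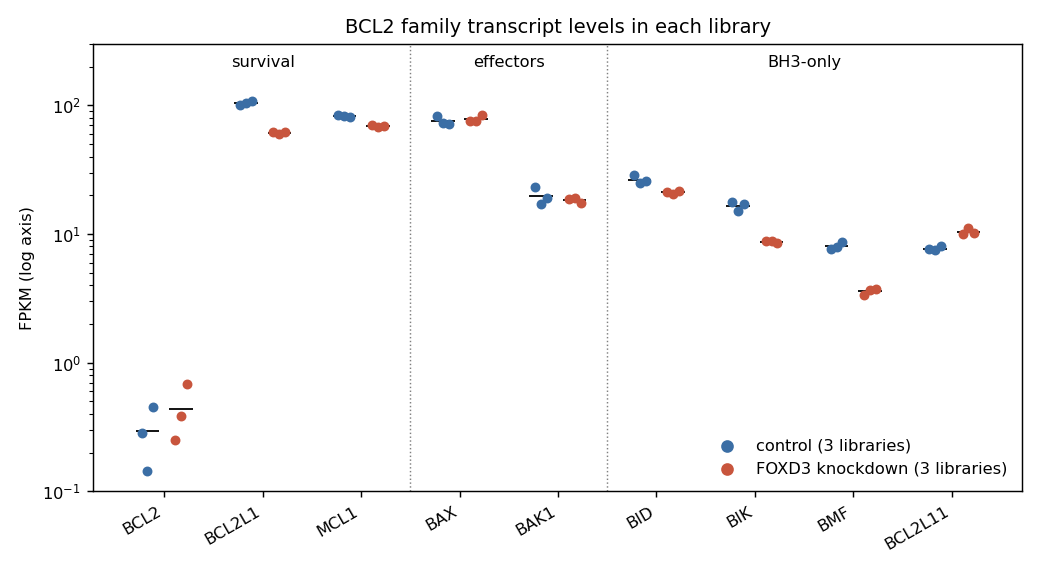
FPKM on a log axis for the 9 listed members, ordered by role, with 1 point per library (3 control, 3 FOXD3 knockdown) and a bar at each mean. The groups separate for BCL2L1, MCL1, BID, BIK, BMF and BCL2L11 and overlap for BCL2, BAX and BAK1.

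Among the survival genes, BCL2L1 (Entrez 598, chromosome 20, 30252261 to 30310656, hg19) had values of 100.5, 104 and 109 FPKM in control replicates 1, 2 and 3 and of 61.9, 59.7 and 61.7 in the knockdown replicates. All 3 control values lay far above all 3 knockdown values. The log2 change (control subtracted from knockdown, of log2(FPKM + 1), as in all that follow) was -0.76 (SE 0.045; limma, adjusted p = 4.68e-06), and 10.9% of tested symbols had a lower value. BCL2L1 yields a long survival form and a short pro-death form by splicing, which gene-level FPKM cannot separate.

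MCL1, a short-lived survival protein (Entrez 4170, chromosome 1, 150547027 to 150552214, hg19), was at 83.8, 82.8 and 81.7 FPKM in control and 70.8, 68.3 and 69.1 in knockdown libraries. The groups were narrow and did not overlap, but the difference was small, at 1.19-fold. Its log2 change was -0.25 (SE 0.039; limma, adjusted p = 0.00073), and 36.6% of tested symbols had a lower value. MCL1 also has spliced forms of differing function, which these values pool.

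BCL2 itself (Entrez 596, chromosome 18, 60790579 to 60986613, hg19), the founding survival gene, was the lowest of the 9 listed members. It stood at 0.285, 0.143 and 0.454 FPKM in control and 0.253, 0.382 and 0.682 in knockdown libraries, and the groups overlapped. It lay under the 0.5 FPKM minimum, and a two-sided exact permutation test of its mean had p = 0.5. At a rough depth of 6600000 to 7300000 fragments per library these values correspond to about 7.03 to 35.6 fragments if its longest transcript was counted, so a moderate change may not have been detectable. That depth was read from the lowest FPKM values of 8 to 12 intronless genes per library. The limits set on those values bound the depth that could be found, so it is only approximate.

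The effectors showed no called change, which does not show that their levels were equal. BAX (Entrez 581, chromosome 19, 49458117 to 49465055, hg19) was at 82.4, 73.6 and 71.1 FPKM in control and 76.0, 76.1 and 84.3 in knockdown libraries. Control replicate 1 sat above 2 of the knockdown libraries, so the groups overlapped. The log2 change was 0.06 (SE 0.067; limma, adjusted p = 0.471), and its sign turned to -0.01 after quantile normalization. BAK1 (Entrez 578, chromosome 6, 33540323 to 33548070, hg19) was at 23.0, 17.2 and 19.1 FPKM in control and 18.6, 19.1 and 17.5 in knockdown libraries. Control replicate 1 was the highest of the 6 and the others mixed. Its log2 change was -0.09 (SE 0.098; limma, adjusted p = 0.436), and 0.02 without control replicate 1.

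The BH3-only genes split. BMF, whose product is held on the actin and myosin V cytoskeleton by a dynein light chain (Entrez 90427, chromosome 15, 40380092 to 40401075, hg19), was at 7.68, 7.99 and 8.73 FPKM in control and 3.37, 3.67 and 3.74 in knockdown libraries. Every knockdown value was below every control value. The log2 change was -0.99 (SE 0.079; limma, adjusted p = 1.95e-05), and 6.03% of tested symbols had a lower value. With a pseudocount of 0.1 in place of 1 it was -1.16.

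BIK, a BH3-only protein found mainly at the endoplasmic reticulum of epithelial cells (Entrez 638, chromosome 22, 43506754 to 43525718, hg19), was at 17.7, 15.0 and 17.1 FPKM in control and 8.85, 8.78 and 8.54 in knockdown libraries. The knockdown libraries were close together, at 8.72 ± 0.161 (SD, n = 3). The log2 change was -0.85 (SE 0.073; limma, adjusted p = 2.8e-05), and 8.67% of tested symbols had a lower value.

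BID, which caspase-8 cleaves to carry a death receptor signal to mitochondria (Entrez 637, chromosome 22, 18216906 to 18257431, hg19), was at 28.7, 25.1 and 25.7 FPKM in control and 21.3, 20.6 and 21.8 in knockdown libraries. The groups did not overlap, but the gap was smaller than for BIK and BMF. The log2 change was -0.31 (SE 0.063; limma, adjusted p = 0.00315), and 32.8% of tested symbols had a lower value.

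BCL2L11, which encodes BIM, a broad binder of survival proteins and a direct activator of the effectors (Entrez 10018, chromosome 2, 111878491 to 111926022, hg19), moved the other way. It was at 7.58, 7.48 and 8.04 FPKM in control and 9.93, 11.0 and 10.1 in knockdown libraries. All knockdown values lay above all control values. The log2 change was 0.39 (SE 0.069; limma, adjusted p = 0.00143), a 1.35-fold difference of means, and 15.7% of tested symbols had a higher value.

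The authors' deposited table, which gives 1 value per group and its own scaling, holds 8 of the members. It gives a false discovery rate under 0.05 for 2 of them, where 22.1% of its 12275 rows pass. In the authors' deposited table those 2 are BMF (log2 fold change -1.06, false discovery rate 0.00131) and BCL2L1 (-0.64, 0.0182). The authors' deposited table gives BIK a log2 fold change of -0.81 at a rate of 0.0611 and BCL2L11 one of 0.53 at 0.113, the same directions as above without passing. MCL1 (-0.16, 0.705) and BID (-0.21, 0.571) do not pass in the authors' deposited table, and its MCL1 row spans a wider locus (chromosome 1, 150521898 to 150552214, hg19) than the library tables give. BAX (0.19, 0.631) and BAK1 (0.03, 0.956) do not pass in the authors' deposited table either, and the BAK1 value has the opposite sign to the -0.09 above.

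The order of the levels differed at the top and among the BH3-only genes. In control libraries BCL2L1 was the most abundant member at 104 ± 4.23 FPKM (SD, n = 3), followed by MCL1 at 82.8 ± 1.07 and BAX at 75.7 ± 5.97, and MCL1 and BAX overlapped. In knockdown libraries BAX came first at 78.8 ± 4.73, then MCL1 at 69.4 ± 1.30 and BCL2L1 at 61.1 ± 1.19, with no overlap between neighbours. BID and BAK1 held the fourth and the fifth place in both groups. BIK, BMF and BCL2L11 followed in that order in control libraries, where BAK1 overlapped BIK and BMF overlapped BCL2L11. In knockdown libraries the order was BCL2L11, BIK, BMF, with ranges that did not overlap. BCL2 was last in both.

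**Figure D2:**
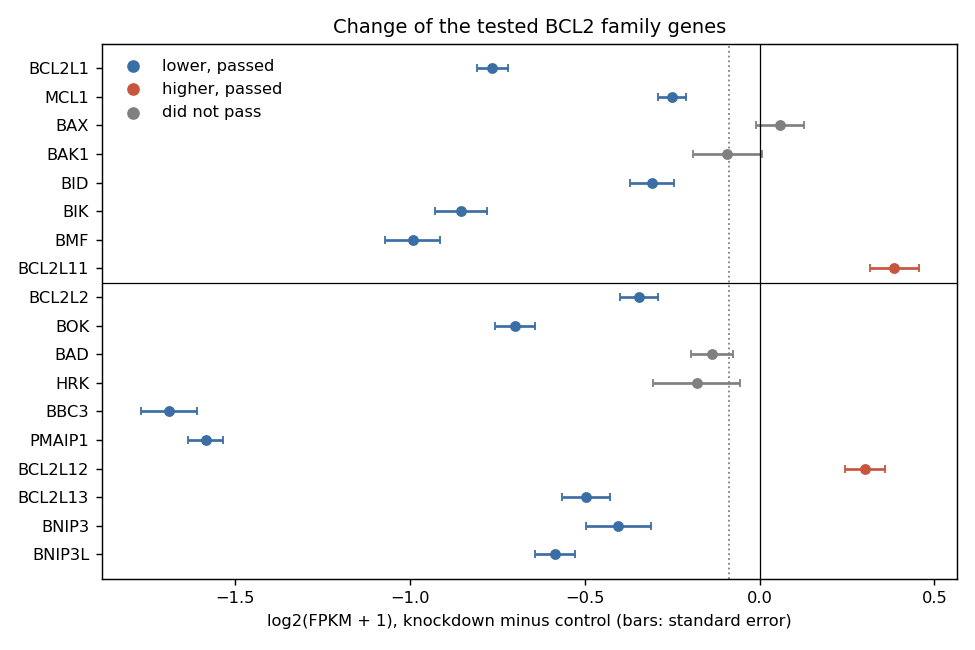
Change in log2(FPKM + 1), knockdown minus control, with its standard error, for the 8 tested members above the line and 10 other tested genes of the family below it. The dotted line marks the median of all tested symbols at -0.09, and BBC3 and PMAIP1 lie furthest to the left.

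Survival and pro-death levels were then set against each other in each library, as a description without a test, because the members were chosen with earlier results known. The 4 survival genes summed to 185, 187 and 191 FPKM in control and 133, 128 and 131 in knockdown libraries. The effectors summed to 90.2 to 105 and 94.7 to 102 FPKM, which overlap. The BH3-only genes summed to 55.5 to 61.7 FPKM in control and 43.5 to 44.2 in knockdown libraries, so both the survival and the BH3-only sums were lower in every knockdown library. Survival over pro-death FPKM of these members was 1.10, 1.28 and 1.28 in control and 0.962, 0.922 and 0.901 in knockdown libraries. Every control ratio was above 1 and every knockdown ratio below it, but this standing against 1 depends on the members counted. Other family genes were left out. These include BAD (74.5 FPKM in control, 67.6 in knockdown), PMAIP1 (33.3 and 10.4) and the survival gene BCL2L2 (19.3 and 14.9). For the members counted, the mean log2 difference was -0.39. The direction turned without BCL2L1, the most abundant survival gene in control libraries, and BAX, where the difference was 0.09. Without MCL1, the most abundant survival gene in knockdown libraries, and BAX it was -0.43, a setting chosen after seeing the data. When each member counted equally, as the mean of log2(FPKM + 1), the difference was 0.08. That mean gives BCL2A1, set to 0, and BCL2, under the minimum for testing, the same weight as BCL2L1 and MCL1, which fell. Its sign depends on counting BCL2A1 and BCL2, the genes at or near 0 FPKM. A ratio of transcripts says nothing of protein levels or binding.

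Ratios of single genes within a library showed the same split without any scaling between libraries. BCL2L1 over BAX was 1.22, 1.41 and 1.53 in control and 0.813, 0.785 and 0.732 in knockdown libraries. MCL1 over BCL2L1 was 0.834, 0.797 and 0.750 in control and 1.15, 1.14 and 1.12 in knockdown libraries. BMF over BCL2L11 was 1.01, 1.07 and 1.09 in control and 0.339, 0.333 and 0.369 in knockdown libraries. Shares were taken of the summed FPKM of the 4 BH3-only members, without BAD, BBC3, PMAIP1 and HRK. BCL2L11 made up 12.3% to 13.5% of that sum in control and 22.8% to 25.1% in knockdown libraries, while BIK made up 27.0% to 28.7% and then 19.3% to 20.4%. BID supplied the largest share of the 4 in both groups, 43.2% to 46.5% and 46.7% to 49.3%. Such ratios show unequal change and not which gene of a pair moved.

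**Figure D3:**
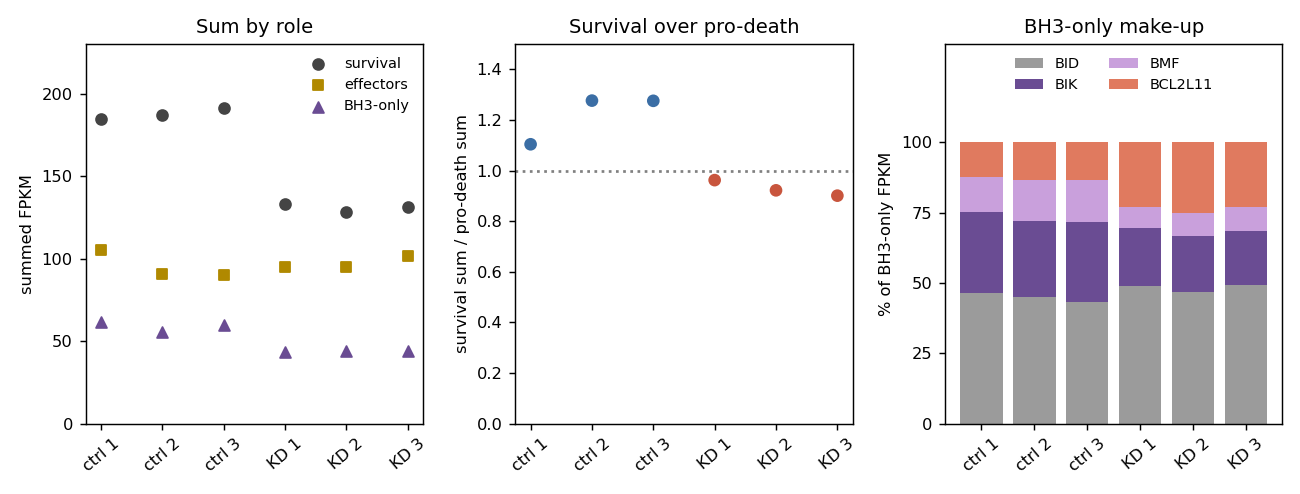
Left, summed FPKM of the survival, effector and BH3-only members in each library. Middle, the survival sum over the pro-death sum of these members, with a dotted line at 1. Right, the share of each gene in the BH3-only sum of these members. The survival sums are 185 to 191 FPKM in control (ctrl) and 128 to 133 in knockdown (KD) libraries, and the BCL2L11 share is larger in the latter.

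The other genes of the family were taken from a list of 13, of which 10 were tested, 7 fell and 1 rose, with a median log2 change of -0.45. The shares over all tested symbols were 37.9% lower and 25.6% higher. The largest falls in the whole family were here. BBC3, the p53-induced BH3-only protein PUMA, was at 18.0, 17.5 and 18.0 FPKM in control and 4.31, 5.42 and 4.85 in knockdown libraries (log2 change -1.69, SE 0.081; limma, adjusted p = 1.91e-06). PMAIP1, the MCL1-binding BH3-only protein NOXA, was at 32.8, 33.6 and 33.4 FPKM in control and 10.8, 10.2 and 10.4 in knockdown libraries (log2 change -1.58, SE 0.051; limma, adjusted p = 4.95e-07). In both genes every control library was far above every knockdown library. For BBC3 1.09% and for PMAIP1 1.40% of tested symbols had lower values.

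BOK, a BAX-like effector, went from 17.0 ± 0.589 to 10.1 ± 0.278 FPKM (SD, n = 3), and an antisense transcript that overlaps it was under 1 FPKM. BCL2L2, the survival gene for BCL-w, went from 19.3 ± 0.745 to 14.9 ± 0.0424, but it shares its locus with the readthrough gene BCL2L2-PABPN1, which moved from 19.8 to 26.9 FPKM, so how reads were divided between them is uncertain. BNIP3L and BNIP3, mitophagy receptors with BH3-like segments, were 1.52-fold and 1.34-fold lower, and BCL2L13, another mitophagy receptor of the family, was 1.44-fold lower. BCL2L12 rose from 32.7 ± 1.92 to 40.5 ± 1.51 FPKM (SD, n = 3), and its locus overlaps IRF3. BAD, a BH3-only protein controlled by phosphorylation, was at 74.5 ± 5.38 and 67.6 ± 2.36 (limma, adjusted p = 0.0759). HRK was at 2.84 ± 0.356 and 2.40 ± 0.468 FPKM (limma, adjusted p = 0.24). BCL2L14 and BCL2L15 were under the minimum and BCL2L10 was not listed in the tables. In the authors' deposited table BBC3, PMAIP1 and BOK pass (false discovery rate 0.000722, 0.000722 and 0.049), where 22.1% of rows pass. BCL2L2, BCL2L12, BCL2L13, BNIP3, BNIP3L, BAD and HRK do not pass in the authors' deposited table (0.0707 to 0.959). Its log2 fold change for BAD is 0.03, the opposite sign to limma's -0.14.

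Genes around the family were then read from 5 further lists. Of 8 genes on the death receptor route to BID, 6 fell and 2 rose, with a median log2 change of -0.67, where 37.9% of all tested symbols were called lower and 25.6% higher, 63.5% in all. Nothing particular to a list is read from its count beside these shares. CASP10, an initiator caspase, was 2.44-fold, CFLAR, its inhibitor c-FLIP, 1.85-fold, TNFRSF10B, a TRAIL receptor, 1.80-fold and TRADD, an adaptor of TNF receptor 1, 1.65-fold lower. The risers, named after their values were seen, were TNFRSF10A (6.02 ± 0.683 to 7.43 ± 0.38 FPKM) and FADD (27.9 ± 1.61 to 31.0 ± 0.307; SD, n = 3). Neither rise was firm. TNFRSF10A no longer passed without control replicate 1 or 3 or knockdown replicate 1 or 3 (limma, adjusted p = 0.0563 to 0.0937). FADD no longer passed without control replicate 2 or 3 or any 1 of the knockdown replicates (0.0577 to 0.126), nor in limma without a variance trend (0.0717).

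Downstream of the pore, 5 of the 11 apoptosome and caspase genes reported here rose and 6 did not pass, with a median log2 change of 0.19 over the 11. Without knockdown replicate 2, 3 of them were higher, and after median scaling 8 were. The share that rose over all tested symbols was 25.6%, and 63.5% were called in all. CYCS, cytochrome c itself, went from 29.8 ± 1.98 to 57.8 ± 1.95 FPKM (SD, n = 3), though it has many processed pseudogenes that can share reads. AIFM1, a mitochondrial flavoprotein, went from 39.5 ± 2.52 to 59.7 ± 2.41, and XIAP, a caspase inhibitor, from 13.0 ± 1.22 to 16.0 ± 0.403. ENDOG, a mitochondrial nuclease, went from 4.44 ± 0.42 to 5.52 ± 0.365 FPKM (SD, n = 3; limma, adjusted p = 0.0298), and no longer passed without control replicate 1 or 2 or knockdown replicate 2 or 3 (adjusted p = 0.0685 to 0.0987). APAF1 and CASP9, which build the apoptosome with cytochrome c, did not pass, at adjusted p = 0.245 and 0.134 in limma, but CASP9 passed as lower without knockdown replicate 2 (adjusted p = 0.0169).

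Of 10 genes listed as partners at the mitochondrial outer membrane, 7 rose, 1 fell and 2 did not pass, with a median log2 change of 0.37, against 25.6% higher and 37.9% lower over all tested symbols. The list also holds proteins of other membranes: BCAP31, a caspase-8 substrate of the endoplasmic reticulum, went from 328 ± 30.8 to 513 ± 11.4 FPKM (SD, n = 3). MFN2, a mitochondrial fusion GTPase, was 1.64-fold higher, MTCH2, a receptor for truncated BID, 1.39-fold and DNM1L, the fission GTPase, 1.32-fold. VDAC2, a porin that binds BAK and was named after its values were seen, was the one that fell, from 322 ± 12.2 to 286 ± 7.22, a call lost after median scaling (limma, adjusted p = 0.177).

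Genes of turnover and sequestration were mixed, with 2 of 8 higher, 2 lower and 4 that did not pass, and a median log2 change of -0.10, where 63.5% of all tested symbols were called. DYNLL1, the dynein light chain known to hold BIM, rose from 174 ± 6.38 to 305 ± 18.6 FPKM (SD, n = 3), and DYNLL2, which holds BMF, from 71.0 ± 2.04 to 88.6 ± 2.65. BTRC, a ubiquitin ligase subunit, was 1.47-fold and MARCH5, a mitochondrial ubiquitin ligase, 1.32-fold lower. HUWE1, FBXW7 and USP9X, which set MCL1 protein stability, did not pass (limma adjusted p = 0.127, 0.97 and 0.0722), though USP9X passed as lower without control replicate 1 (adjusted p = 0.0223).

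Of 10 transcription factors known to act on these genes, 8 fell and 2 rose, with a median log2 change of -0.43, against 37.9% lower and 25.6% higher over all tested symbols. NFKB1, a subunit of NF-kB, was 1.62-fold lower, DDIT3, the stress factor CHOP, 1.52-fold and STAT3 1.41-fold. E2F1 rose from 10.9 ± 2.01 to 20.3 ± 0.458 FPKM (SD, n = 3) and MYC, named after its values were seen, from 46.7 ± 1.01 to 54.8 ± 2.11. FOXO1 and FOXO3, forkhead factors known to act on BCL2L11, were both lower, at 6.51 ± 0.375 against 4.45 ± 0.35 and 24.8 ± 1.06 against 19.2 ± 1.74, and were also named after their values were seen.

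**Figure D4:**
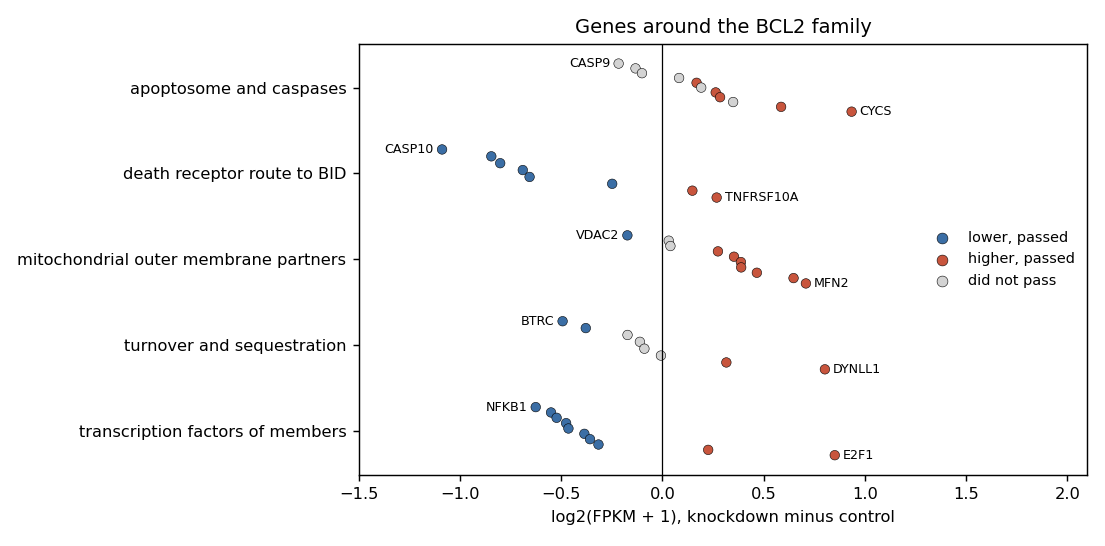
Change in log2(FPKM + 1), knockdown minus control, of each tested gene in 5 lists around the BCL2 family, 1 point per gene, coloured by whether it passed limma's test. Points of the transcription factor and death receptor lists lie mainly left of 0, and those of the mitochondrial list mainly right of it.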

How the data were processed

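Libraries were TruSeq RNA, per the labels' protocols. The submitters' processing notes name, in no stated order, Cufflinks 2.0.2 and Cuffdiff, Bowtie and TopHat2 2.0.12, and the build hg19. Annotation, strandedness and read length are not given in these sources. The authors deposited FPKM values per library, per the file headers, with no row at 0, and a comparison table with a log2 fold change, p-value and false discovery rate, which the authors computed and which is quoted only by name.

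FPKM was summed over rows of a symbol and unlisted symbols were set to 0. Symbols with a mean of at least 0.5 FPKM were tested as log2(FPKM + 1) with limma 3.58.1 in R 4.3.3 (two-sided, eBayes with its trend, adjusted p under 0.05 by Benjamini-Hochberg), without covariates, since the labels give no batch or pairing. The filter, pseudocount, scaling, variance estimate, duplicate rows and each library were varied. The test was also run on simulated data with known changes in a small share of symbols. It does not cover a setting like this one, where 63.5% were called. A single fragment's FPKM was taken from genes without introns, 1500 bp or longer, with FPKM times length in kb between 0.08 and 0.2, limits set after values were seen.

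Members and lists were chosen with earlier results of these data known. All 10 members, all other family genes and up to 4 called genes of each further list with at least 5 FPKM were named by rule. Some results of these lists are not reported here. Coordinates are hg19 (1-based), and promoters are RefSeq GRCh38.p14.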

Additional observations from a re-analysis of the deposited data

How the results depend on the processing

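The counts of 5 members lower and 1 higher were the same in all 15 alternatives. Over the 6 lists beside the members, 19 genes were higher and 24 lower, with ranges of 15 to 22 and 22 to 25. The share of all tested symbols called was 63.5%, and 48.8% with no filter on low values.

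Of 740 comparisons of 50 genes with an alternative, 713 kept direction and side of the threshold. After quantile normalization BAX was at -0.012, HRK at 0.097, APAF1 at 0.138, CASP9 at 0.011 and FBXW7 at 0.225, and BAD passed (-0.214). FBXW7 was at 0.065 after median scaling and -0.120 to 0.137 with a library left out, positive without control or knockdown replicate 2. VDAC2 did not pass after median scaling (-0.085), and TNFRSF10A, ENDOG and FADD failed in 4, 4 and 6 settings. Leaving out each library in turn put BAK1 between -0.183 and 0.017, positive without control replicate 1. The cause of these shifts was not tested. BAX, HRK, BAK1, APAF1 and FBXW7 did not pass in any setting. The log2 ratio of survival to pro-death sums, -0.390, was -0.459 to -0.355 with a library left out, 0.085 without BCL2L1 and BAX and 0.084 as a mean of logs. Without MCL1 and BAX, added after seeing the data, it was -0.431. The mean of logs counted BCL2A1, set to 0, and BCL2 as fully as BCL2L1 and MCL1. FOXD3 differed by -0.167 FPKM (-0.196 to -0.118 with a library left out).

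No paired analysis was possible because the labels give no replicate numbers that pair the groups. The scalings and variance estimates were not run for BCL2, which had no limma test. Without counts, the precision of low genes such as BCL2 is known only roughly.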
